A study of Homo sapiens with 2 samples.

Results

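The integrated stress response is represented here by 10 genes, chosen by symbol as its transcription factors and effectors: ATF4, DDIT3 (which encodes CHOP), CEBPB, TRIB3, PPP1R15A, CHAC1, SESN2, DDIT4, ASNS and STC2. All 10 were found among the 23686 gene symbols of the deposited tables. They were measured in A427, an established line of human lung carcinoma cells of the non-small cell kind, some of which attach to the culture dish while others form spheres in suspension. The sample labels give the genotype as WT, while the series title calls the cells CTNNB1-mutated. The labels name no agent added to either culture, and both were grown in RPMI medium with fetal bovine serum. Floating, sphere-forming cells gave 1 library of poly(A) RNA and adherent cells gave the other, so the comparison is between 2 libraries of 1 cell line and has no replicate check.

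In the integrated stress response, kinases that sense unfolded proteins, amino acid shortage, double-stranded RNA or haem shortage phosphorylate the translation factor eIF2 on its alpha subunit. General translation then falls while the ATF4 messenger RNA is translated more, so that ATF4 protein can change with little change in its transcript. ATF4 switches on genes of amino acid supply and redox balance and the gene for CHOP, and CHOP in turn drives PPP1R15A, whose product leads the phosphatase that reverses the eIF2 mark.

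The floating library held 27148842 reads assigned to genes and the adherent library 26384670. A gene was compared if it reached 1 CPM (counts per 1000000 library reads) in at least one library, which 13131 genes did, all 10 stress response genes among them. Ratios are floating over adherent on counts after TMM scaling (edgeR's trimmed mean of M values), and the bracketed ranges are exact 95% binomial intervals, which cover counting error only and not the spread between cultures. The median log2 ratio of all tested genes was -0.001 and the middle 50% of them lay between -0.16 and 0.16. EPCAM, an epithelial surface protein, stood at 581.8 TPM (transcripts per 1000000, a level per transcript length) in floating and 615.3 TPM in adherent cells. Of 6 epithelial markers 4 were tested, and the summed level of all 6 was 1791 TPM in floating and 1304 TPM in adherent cells. The keratin KRT18 was 1.85-fold higher (1.79 to 1.91) and its partner KRT8 1.84-fold higher (1.78 to 1.89) in floating cells, whereas the adhesion protein CDH1 was 1.31-fold lower (1.19 to 1.43). The 7 leukocyte and endothelial markers summed to 2.43 TPM in floating and 3.09 TPM in adherent cells, and CD3E, LYZ and CDH5 had 0 reads in both. VWF, a gene of endothelial cells, was 2.97-fold higher (1.64 to 6.02), with 44 reads in floating and 14 in adherent cells, and the leukocyte gene PTPRC was 1.35-fold lower (1.06 to 1.73), with 121 reads in floating and 159 in adherent cells. The 6 fibroblast markers summed to 25.5 TPM in floating and 36.5 TPM in adherent cells, with COL1A1 1.68-fold lower (1.52 to 1.86) and FAP 1.25-fold lower (1.12 to 1.40) in floating cells. The part of these marker differences in the ratios below was not tested. In bulk RNA, a change in the share of stressed cells and a change in the RNA of each cell cannot be told apart.

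Promoters of 3 of the genes are shown because they hold letters that ATF4 and related factors are known to bind. The windows run from 250 bases before to 50 bases after an annotated start in RefSeq on GRCh38.p14, on the coding strand. Those of CHAC1 (chr15:40953221-40953520, plus strand), ASNS (chr7:97872359-97872658, minus strand) and PPP1R15A (chr19:48872171-48872470, plus strand) read as follows, with the matched motif in capitals.

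CHAC1: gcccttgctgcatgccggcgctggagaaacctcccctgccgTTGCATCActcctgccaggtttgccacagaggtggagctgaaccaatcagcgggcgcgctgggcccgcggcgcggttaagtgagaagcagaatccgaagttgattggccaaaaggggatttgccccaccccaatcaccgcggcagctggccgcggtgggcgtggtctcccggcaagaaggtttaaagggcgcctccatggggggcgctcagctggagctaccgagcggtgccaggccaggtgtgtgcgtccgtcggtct

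ASNS: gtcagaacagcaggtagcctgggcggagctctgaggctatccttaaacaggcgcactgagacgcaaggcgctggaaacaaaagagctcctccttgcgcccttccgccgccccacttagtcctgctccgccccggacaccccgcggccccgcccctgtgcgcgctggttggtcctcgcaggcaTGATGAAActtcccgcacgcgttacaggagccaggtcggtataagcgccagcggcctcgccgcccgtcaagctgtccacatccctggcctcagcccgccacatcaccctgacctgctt

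PPP1R15A: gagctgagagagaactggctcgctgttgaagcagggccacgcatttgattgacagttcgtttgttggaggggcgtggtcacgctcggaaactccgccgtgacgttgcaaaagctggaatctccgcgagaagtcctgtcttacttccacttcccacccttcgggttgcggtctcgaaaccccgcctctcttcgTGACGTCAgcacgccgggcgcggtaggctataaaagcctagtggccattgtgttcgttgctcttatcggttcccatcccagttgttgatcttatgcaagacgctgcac

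In CHAC1 the capitals mark the reverse complement of TGATGNAA, the core of the C/EBP-ATF response element, from 209 to 202 bases before the start. In ASNS they mark the same core in forward orientation, 68 to 61 bases before the start, a place known as part of the nutrient-sensing unit of this gene. In PPP1R15A they mark TGACGTCA, the cyclic AMP response element that CREB and ATF factors bind, 58 to 51 bases before the start. All 10 genes had at least 1 window, 16 in all, and both strands were searched. The core TGATGNAA was found in windows of 2 of the 10 genes and in 4.46% of the 27305 genes in the promoter table. TGACGTCA was found in 1 of the 10 and in 2.25% of all genes, and the 2 motifs do not overlap in these windows. The longer spelling TGATGNAAT, which fixes a T after the core, was found in none of the 10 genes and in 1.22% of all genes. It was the main spelling of the search for this element, and the shorter TGATGNAA was an alternative to it. Read in the direction of the core, the next letter is C in both ASNS and CHAC1. Their matches therefore differ from the main spelling at that letter, and whether they are full elements was not tested. A match is a run of letters, not a measured binding site, and elements outside these windows were not searched.

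ATF4, DDIT3 and ASNS had the highest transcript levels in both libraries and CHAC1 the lowest. In floating cells the order by TPM was ATF4, DDIT3, ASNS, CEBPB, TRIB3, SESN2, PPP1R15A, DDIT4, STC2 and CHAC1. In adherent cells it was the same but for PPP1R15A, which stood above SESN2. In all, 2 pairs of neighbours in floating cells, SESN2 with PPP1R15A and DDIT4 with STC2, had overlapping exact Poisson intervals, as had CEBPB and TRIB3 in adherent cells. The 10 transcripts summed to 1358 TPM in floating and 1026 TPM in adherent cells.

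**Figure D1:**
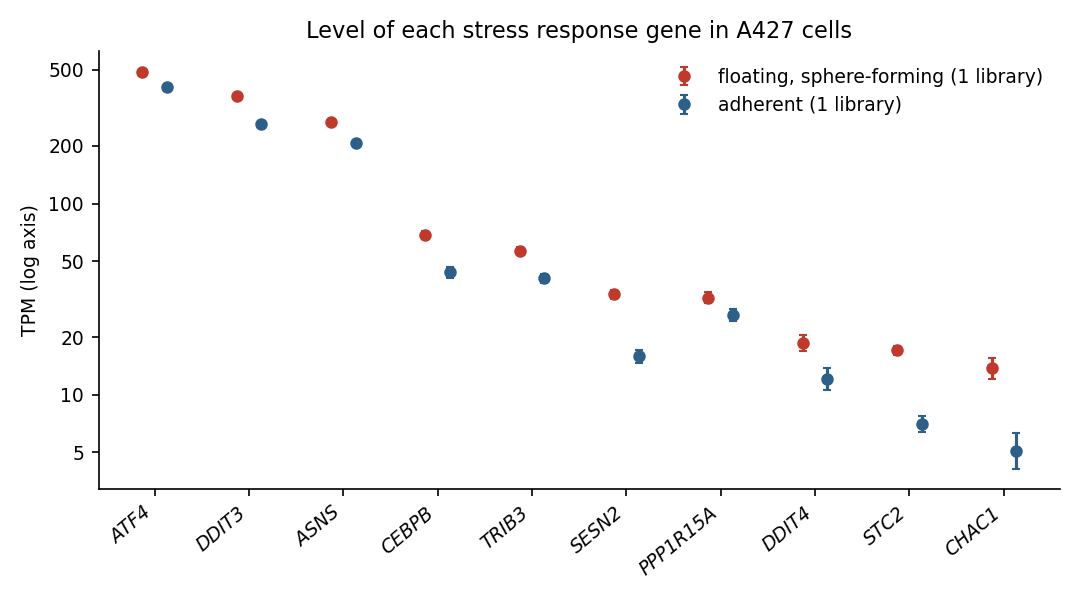
Level of each of the 10 genes in TPM on a log axis, floating cells left of adherent cells, 1 library each, with exact 95% Poisson intervals for counting error. Each gene was higher in the floating library, from ATF4 at 484.1 against 408.4 TPM to CHAC1 at 13.7 against 5.12 TPM.

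All 10 genes were higher in floating cells, each with a counting interval above no difference. Among all tested genes 26.0% had such an interval above no difference and 25.0% one below. CHAC1, STC2 and SESN2 were called higher, meaning a difference of 2-fold or more whose interval leaves out no difference, and none was called lower, against 1.29% of all tested genes called higher and 0.754% called lower. At 1.5-fold CEBPB and DDIT4 joined them, so that 5 of the 10 passed, against 3.31% of all tested genes. The median log2 ratio of the 10 was 0.60, with a range of 0.29 to 1.47. The 10 genes were chosen with earlier results of these data known. Setting their counts beside the shares of all tested genes is therefore a description and not a test of an excess.

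**Figure D2:**
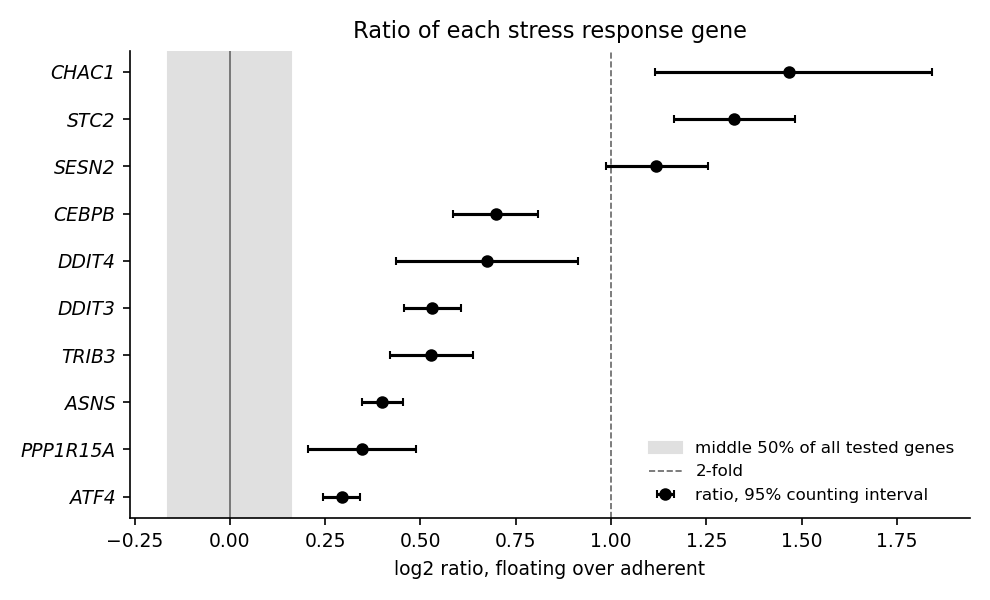
Log2 ratio of floating over adherent cells for each gene, with its exact 95% counting interval, beside the middle 50% of all tested genes (grey band) and the 2-fold line (dashed). CHAC1, STC2 and SESN2 lie beyond 2-fold, and ATF4 has the smallest ratio at 0.29.

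Among the transcription factors, the ratio was smallest for ATF4 itself. ATF4 had 7921 reads (484.1 TPM) in floating and 6266 reads (408.4 TPM) in adherent cells, a 1.23-fold difference (1.19 to 1.27). It ranked 285th by TPM of all genes in floating and 334th in adherent cells, so it was abundant in both. DDIT3 encodes CHOP, a factor that ATF4 induces and that promotes cell death under lasting stress. It had 3606 reads (365.2 TPM) in floating and 2418 reads (259.2 TPM) in adherent cells, 1.45-fold apart (1.37 to 1.52). DDIT3 thus stood at 75.5% of the ATF4 level in floating and 63.5% in adherent cells, both in TPM. CEBPB, a C/EBP factor that pairs with ATF4 and CHOP, was 1.62-fold higher (1.501 to 1.75), with 1745 reads (68.4 TPM) in floating and 1043 reads (43.6 TPM) in adherent cells.

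The feedback genes TRIB3 and PPP1R15A were both below 1.5-fold. TRIB3 encodes a pseudokinase that is induced by ATF4 and CHOP and represses them. It had 1708 reads (56.7 TPM) in floating and 1148 reads (40.7 TPM) in adherent cells, 1.44-fold apart (1.34 to 1.56). TRIB3 stood at 15.5% of the DDIT3 level in floating and 15.7% in adherent cells, in TPM. PPP1R15A encodes GADD34, the stress-induced subunit that brings a phosphatase to eIF2. It had 941 reads (32.2 TPM) in floating and 717 reads (26.2 TPM) in adherent cells, 1.27-fold apart (1.15 to 1.40). Relative to DDIT3 it stood at 8.82% in floating and 10.1% in adherent cells.

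The effectors included the 3 genes past 2-fold. CHAC1 encodes an enzyme that degrades glutathione and is among the known responders to ATF4. It had 249 reads (13.7 TPM) in floating and 87 reads (5.12 TPM) in adherent cells, a 2.76-fold difference (2.16 to 3.58), which placed it at percentile 99.4 of the ratios of all tested genes. STC2, a secreted glycoprotein, had 1180 reads (17.1 TPM) in floating and 457 reads (7.07 TPM) in adherent cells, 2.501-fold apart (2.24 to 2.79). SESN2 encodes a sestrin that senses leucine and restrains the growth kinase complex mTORC1. It had 1493 reads (33.5 TPM) in floating and 666 reads (15.9 TPM) in adherent cells, 2.17-fold apart, with an interval of 1.98 to 2.38 that reaches just under 2-fold.

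The other effectors lay below 2-fold. DDIT4 encodes REDD1, a second brake on mTORC1 that also responds to hypoxia and glucocorticoids. It had 387 reads (18.7 TPM) in floating and 235 reads (12.1 TPM) in adherent cells, 1.59-fold apart (1.35 to 1.88). ASNS, the enzyme that makes asparagine from aspartate, had 6437 reads (268.2 TPM) in floating and 4729 reads (207.2 TPM) in adherent cells, 1.32-fold apart (1.27 to 1.37). Ratios of the 10 genes lay between percentile 87.5 (ATF4) and 99.4 (CHAC1) of all tested genes.

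Genes of lower level tended to have the larger ratios. PPP1R15A, for one, went against this, with a log2 ratio of 0.35 at 32.2 TPM in floating and 26.2 TPM in adherent cells. Across the 10 genes the log2 ratio and the log2 of the geometric mean TPM had a Pearson r of -0.76 and a Spearman rho of -0.76. This is a description over 10 genes of the same 2 libraries, and ratios of all tested genes also spread more widely at low levels.

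**Figure D3:**
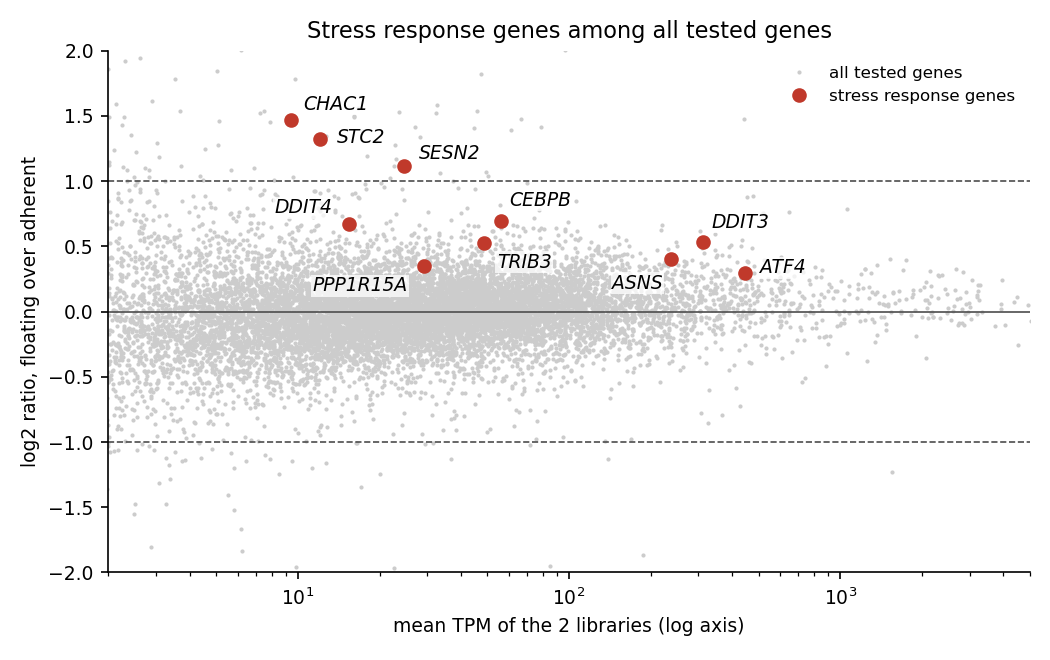
Log2 ratio of floating over adherent cells against the mean TPM of both libraries (log axis) for the 10 genes (red) and all tested genes (grey), with 2-fold marked by dashed lines; the 941 genes below 2 TPM, above 5000 TPM or beyond a log2 ratio of 2 lie outside the axes. All 10 genes lie above 0, 3 of them past 2-fold, and the ratios of all genes narrow as the level increases.

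The estimates for these 10 genes were exact whole numbers in both libraries, as were most in the table, where 6.55% of floating and 6.38% of adherent values, zeros included, had decimals. The effective length per gene, taken as reads per TPM, was compared between libraries relative to the median of 10748 genes above 5 TPM in both. It was 1.47% shorter for ASNS and 0.808% shorter for DDIT3 in floating cells and moved by at most 0.0722% for each of the other 8.

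Upstream of ATF4, transcripts of the eIF2 kinases were close to equal. The list of 4 kinases and their regulators had 8 tested genes with a median log2 ratio of 0.05, of which 5 had intervals above and none below no difference, and none passed 1.5-fold. EIF2AK1 (HRI, the haem-regulated kinase) was the most abundant, at 193.6 TPM in floating and 185.4 TPM in adherent cells, 1.08-fold apart (1.05 to 1.11). EIF2AK3 (PERK, which senses unfolded proteins in the endoplasmic reticulum) and EIF2AK4 (GCN2, which senses uncharged tRNA) each had a ratio of 1.01-fold with an interval that included no difference (0.935 to 1.08 and 0.967 to 1.06). The ratio farthest from 0 was that of DNAJC3 (P58IPK, a chaperone known as an inhibitor of PERK), 1.19-fold higher (1.12 to 1.27), and IMPACT, an inhibitor of GCN2 activation, was 1.10-fold higher (1.03 to 1.17). Transcript levels say nothing of kinase activity, which was not measured.

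Subunits of eIF2 and of its exchange factor eIF2B, the targets of the pathway, had a median of 0.26, with 6 of 8 intervals above no difference. EIF2B2 was 1.34-fold higher (1.21 to 1.49) and EIF2S2 1.298-fold higher (1.26 to 1.34), while EIF2S3, the most abundant at 422.2 TPM in floating and 443.5 TPM in adherent cells, had an interval that included no difference. For the eIF2 phosphatase the median was 0.05. Of its catalytic subunits PPP1CC was 1.09-fold higher (1.06 to 1.13) and PPP1CA had 339.0 TPM in floating and 366.2 TPM in adherent cells, a log2 ratio of -0.06. PPP1R15B, the constitutive relative of PPP1R15A, had 2551 reads in floating and 2349 in adherent cells, 1.05-fold apart with an interval that included no difference.

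Close relatives of the 10 genes did not all share their ratios. Of 13 relatives 10 were tested, with a median of 0.15; 5 had intervals above and 1 below no difference, and TRIB2 alone was called higher, with 37 reads in floating and 14 in adherent cells. ATF5, a paralog of ATF4 under similar translational control, had 90.4 TPM in floating and 93.3 TPM in adherent cells, a log2 ratio of 0.00. Among C/EBP genes, CEBPG, which pairs with ATF4, was 1.56-fold higher (1.49 to 1.64), at 88.8 TPM in floating and 58.9 TPM in adherent cells. CEBPA and CEBPD both had a log2 ratio of -0.12 with intervals that included no difference, and CEBPE had 0 reads in floating and 1 read in adherent cells. CHAC2, which degrades glutathione more slowly than CHAC1, was 1.40-fold higher (1.18 to 1.67), and its interval lies below that of CHAC1. SESN1 was 1.17-fold higher (1.06 to 1.297), below the interval of SESN2, and SESN3 was 1.71-fold lower (1.10 to 2.73) with 33 reads in floating and 55 in adherent cells. TRIB1 was 1.21-fold higher (1.05 to 1.40). STC1 had 4 reads in floating and 0 in adherent cells, and DDIT4L had 0 in both, which allows up to 0.111 CPM in the floating and 0.114 CPM in the adherent library.

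Other factors of the basic leucine zipper class, which can pair with ATF4 or CHOP, went both ways. Of 13 tested, 6 had intervals above and 3 below no difference, with a median of 0.00. The larger ratios were upward: 5 were at least 1.5-fold higher, against 3.31% of all tested genes, and none was 1.5-fold lower. FOS was 4.35-fold higher (3.55 to 5.42) and ATF3, itself an ATF4 target, 2.04-fold higher (1.79 to 2.33). ATF2 was 1.18-fold lower (1.12 to 1.25) and NFE2L1 1.14-fold lower (1.11 to 1.17) in floating cells.

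Known ATF4 targets outside the 10 genes serve to make amino acids, to load them onto tRNA and to carry them into the cell. Of 12 tested genes of amino acid synthesis and one-carbon metabolism, 10 had intervals above and none below no difference (median 0.27). GOT1, which makes aspartate, was 1.61-fold higher (1.52 to 1.71), PSAT1 of serine synthesis 1.58-fold higher (1.501 to 1.66), and the abundant MTHFD2 had 489.2 TPM in floating and 401.2 TPM in adherent cells. All 13 genes of the list of ATF4-responsive tRNA synthetases and the tRNA exporter XPOT had intervals above no difference (median 0.37), from XPOT at 1.09-fold (1.07 to 1.11) to GARS at 1.42-fold (1.37 to 1.46), with CARS at 1.41-fold. The 8 cytosolic synthetases outside that list had a median of 0.26, with 7 intervals above and 1 below. VARS was 1.31-fold and KARS 1.24-fold higher, and QARS was 1.15-fold lower. Of 9 amino acid transporters, 3 had intervals above and 2 below no difference, with a median of 0.02. SLC7A5, a leucine carrier, was 1.37-fold higher (1.33 to 1.41), whereas the glutamine carrier SLC38A2 was 1.33-fold lower (1.32 to 1.35), at 742.1 TPM in floating and 1024 TPM in adherent cells, and the glycine carrier SLC6A9 1.21-fold lower.

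Of 15 further ATF4 targets tested, 10 had intervals above and 2 below no difference (median 0.38). Called higher were GDF15, a stress-induced cytokine, with 643 reads in floating and 208 in adherent cells (2.99-fold, 2.56 to 3.52), and ATF3. KLHL24 was 1.39-fold lower (1.33 to 1.46) and SQSTM1, an autophagy receptor, 1.08-fold lower (1.06 to 1.10), at 563.9 TPM in floating and 631.4 TPM in adherent cells. Among 7 genes linked to CHOP the median was 0.14, with 4 intervals above and none below no difference. GADD45A, a growth arrest gene that also responds to p53, was called higher at 2.25-fold (1.91 to 2.66), and the oxidase ERO1L was 1.16-fold higher (1.12 to 1.21).

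The other arms of the unfolded protein response had no common direction. Of 25 genes of the IRE1 and ATF6 arms, 9 had intervals above and 9 below no difference, with a median of 0.01. HSPA5 (BiP, the main chaperone of the endoplasmic reticulum) was 1.08-fold higher (1.06 to 1.09), at 958.6 TPM in floating and 922.1 TPM in adherent cells, while the most abundant of the list, CALR, was 1.08-fold lower (1.06 to 1.09). HERPUD1, which serves protein degradation and is known to respond to ATF4 as well, was 1.53-fold higher (1.45 to 1.63) and SDF2L1 1.301-fold higher. CRELD2 was 1.26-fold lower (1.19 to 1.33) and MBTPS1, the protease that activates ATF6, 1.23-fold lower (1.17 to 1.29).

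Immediate-early genes, which respond within minutes to serum, handling or stress, were also higher in floating cells. Of 13 tested, 12 had intervals above and none below no difference, with a median of 0.75, and 5 were called higher. FOS and ATF3, already counted among the leucine zipper factors, are among the 5, and ATF3 was also counted among the ATF4 targets. EGR1 was 4.01-fold higher (3.78 to 4.25), at 153.7 TPM in floating and 39.7 TPM in adherent cells, and IER3 was 2.10-fold higher, while KLF6, the most abundant, was 1.06-fold higher. Their part in the ratios of the 10 genes was not tested.

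**Figure D4:**
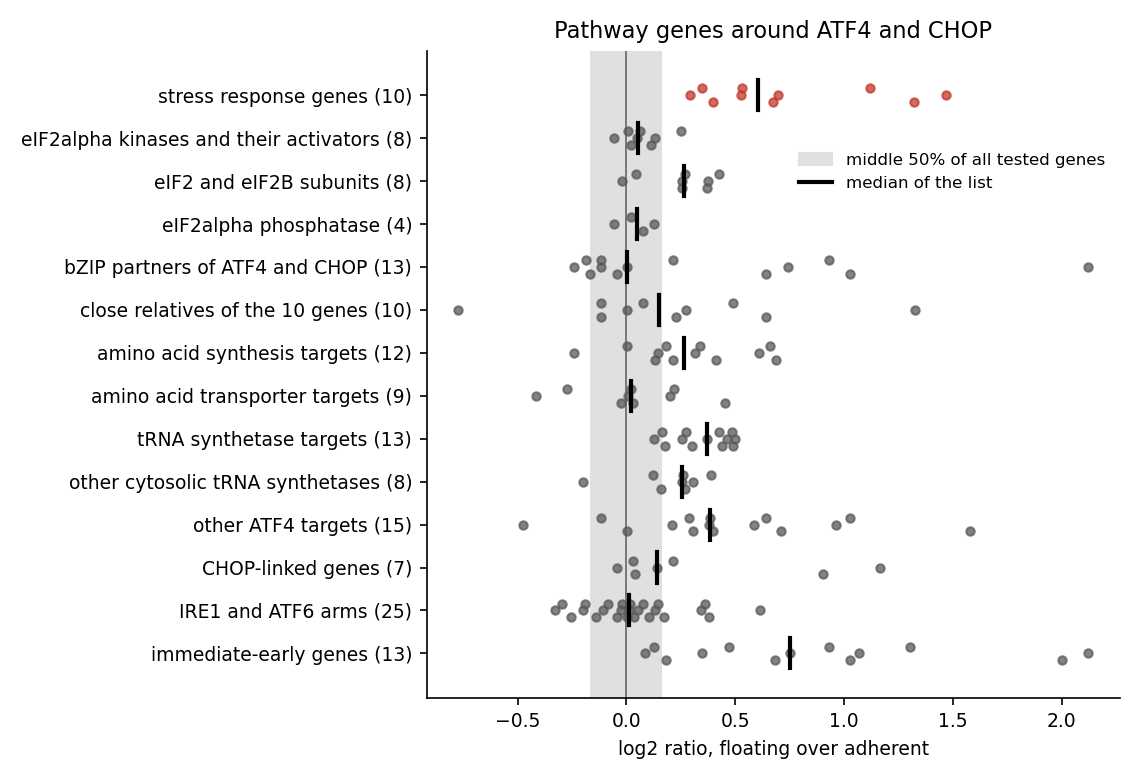
Log2 ratio of floating over adherent cells for each tested gene (point), by list, with the number tested in brackets. The black bar is the list's median and the grey band the middle 50% of all tested genes. The marker lists, hypoxia genes, p53 targets, and mitochondrial chaperones and proteases are not drawn. All 10 stress response genes (red) lie above the grey band, as do most tRNA synthetase targets and most other cytosolic tRNA synthetases. Most amino acid synthesis targets, other ATF4 targets, eIF2 and eIF2B subunits and immediate-early genes lie above it too. The eIF2alpha kinases and the IRE1 and ATF6 arms centre close to 0.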

How the data were processed

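Poly(A) RNA of A427 cells was sequenced in 2 libraries, 1 of floating and 1 of adherent cells. The submitters' processing notes name FastQC (0.11.1), STAR (2.5.3a), RSEM (1.3.3) and the genome build hg19. Neither the annotation nor the settings nor the use of strand is stated there. The authors deposited estimated counts per gene symbol without normalization, and TPM, which the authors scaled to 1000000 per library.

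Estimated counts were rounded. Libraries were scaled by TMM in edgeR 4.0.16 (R 4.3.3) on the genes that reached 1 CPM in either library. The log2 ratio used a prior count of 0.5. Intervals are exact (Clopper-Pearson for ratios, Poisson for levels, 95%), treat each read as an independent draw and cover counting error only. Reads without molecular identifiers are not independent molecules, so the intervals may be too narrow even for counting error. A count of 0 allows 3 reads. With 1 library per group no test was run and no p-value is given. The calculation was tested on simulated counts that held counting error alone, so that test does not cover the spread between cultures. The genes given a change in it all had higher mean counts than CHAC1. Calculations outside R used Python 3.11.15, scipy 1.17.1 and pandas 2.3.3.

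The 10 genes and the 19 pathway and marker lists, which overlap, were chosen with earlier results of these data known. From each pathway list the text names genes called higher or lower (at most 4), otherwise the 2 farthest from 0 whose interval excludes 0, those against the list's median (at most 2), the most abundant gene, and all close relatives. EIF2AK3, EIF2AK4, HSPA5 and the single marker genes were named after their values were seen. Of the listed genes 1 was not matched by symbol or older symbol. Since the annotation in hand is on another build, coordinates are given only for RefSeq promoters. The alternatives tried were scaling by size factors (DESeq2 1.42.0), by totals or by the upper quartile, log2 of TPM + 0.1 or + 1, 5 as prior count, a filter at 5 CPM or none, thresholds of 1.5-fold and 4-fold, calls without the interval, and other motif spellings; removal of a trend over effective length or GC content (20 bins) was added after the data were seen.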

Additional observations from a re-analysis of the deposited data

How the results depend on the processing

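The count of 3 genes called higher (CHAC1, STC2 and SESN2) was the same under all 8 scalings, units, prior counts and filters. It was also the same with no counting interval and with either trend removed. On TPM + 0.1 and TPM + 1 the calls used the fold alone, without an interval. The count was 5 with a 1.5-fold threshold and 0 with a 4-fold threshold. The median log2 ratio of the 10 genes lay between 0.54 and 0.62 over 10 alternatives. Of 100 single-gene values under alternatives, 96 lay within the gene's counting interval and none changed sign. The exceptions were ATF4 (0.24 both with the effective length trend removed and on TPM + 1), DDIT3 (0.40 with the effective length trend removed) and STC2 (1.17 on TPM + 1). No scaling moved the median of all tested genes by more than 0.05. Of all tested genes 170 were called higher, against 286 with no filter, 65 with a minimum of 5 CPM and 67 on TPM + 1. The motif search found 0 of the 10 genes with its main spelling TGATGNAAT and 2 with the shorter alternative TGATGNAA. No paired analysis was possible because each group has 1 library. Depth limits CHAC1, DDIT4 and the rarer relatives most.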

Other observations

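Other inputs known to act on some of the 10 genes were described by lists of their own targets. Hypoxia genes, which include targets of the factor that also drives DDIT4 and STC2, had a median log2 ratio of 0.07 over 12 tested genes, with 6 intervals above and 3 below no difference. The glucose carrier SLC2A1 was 1.37-fold higher (1.20 to 1.57) and VEGFA 1.301-fold higher in floating cells, ENO1 had 973.7 TPM in floating and 881.7 TPM in adherent cells, and PDK1 was 1.28-fold and KDM3A 1.25-fold lower. Targets of p53, which can also drive SESN2, had a median of 0.13 over 15 tested genes, with 11 intervals above and none below. The cell cycle inhibitor CDKN1A was 1.43-fold higher (1.35 to 1.52), the death receptor FAS 1.35-fold and the abundant BAX 1.08-fold higher. All 7 mitochondrial chaperones and proteases had intervals above no difference, with a median of 0.26. HSPD1 had 1709 TPM in floating and 1337 TPM in adherent cells, 1.32-fold apart (1.303 to 1.34), and its partner HSPE1 was 1.29-fold higher (1.24 to 1.33).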
